A study of Mus musculus with 15 samples.

Results

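The genes described here are the 9 core components of Hedgehog signalling, namely the ligands Shh, Ihh and Dhh, the receptors and surface regulators Ptch1, Smo and Hhip, and the transcription factors Gli1, Gli2 and Gli3. They were found by name in a table of 28876 genes, in which each name occurred once, and all 9 passed the filter on low values that left 18553 genes to test. RNA was sequenced from the aorta-gonad-mesonephros (AGM) region of C57BL/6 mouse embryos, the site at which the first definitive hematopoietic stem cells form around the dorsal aorta. The region was divided at E9.5 into the dorsal part of the aorta with its surroundings (E9 AoD) and the ventral part (E9 AoV). At E10.5 it was divided in the same way (E10 AoD for dorsal, E10 AoV for ventral), and the urogenital ridges beside the aorta (E10 UGR) were taken as a further group. Each of the 5 groups has 3 libraries, and each library is a pool of dissected tissue of 15 to 34 embryos, so that no library stands for a single animal or a single cell type. The labels name no transgene or treatment.

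Hedgehog ligands are secreted, lipid-modified proteins that act at a distance from the cells that make them. Without ligand, the receptor Patched holds the membrane protein Smoothened inactive and Gli proteins, above all Gli3, are cut into repressors of transcription. With ligand, Smoothened is released, full-length Gli proteins activate target genes, and these include Gli1, Ptch1 and Hhip, the last pair of which encodes proteins that bind and restrain the ligand. In the trunk of the embryo Shh is made by the notochord, the floor plate of the neural tube and the gut endoderm, Ihh by gut endoderm among others, and Dhh by endothelium, Schwann cells and the gonad.

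Between the stages Shh and Hhip moved in opposite directions on the ventral and dorsal sides of the aorta. In AoV, Shh, Ihh, Ptch1 and Hhip fell and Dhh rose, which made 5 of 9 genes called where 11.0% of all tested genes were called, 6.04% higher and 4.99% lower. In AoD, Shh, Dhh and Hhip rose, 3 of 9 against 12.6% of all tested genes. At E10.5 the ventral side was lower than the dorsal side in Shh, Ptch1, Gli1 and Hhip (4 of 9, against 10.1%), whereas at E9.5 Ihh was the 1 gene of 9 that was called, and was higher on the ventral side (against 11.8%). E10 AoV differed from E10 UGR in Dhh (1 of 9, against 7.57%), and E10 AoD was higher than E10 UGR in Shh, Dhh, Ptch1, Gli1 and Hhip (5 of 9, against 11.3%). The difference between the ventral and the dorsal change with stage, tested as an interaction, was called for Shh, Ihh, Ptch1, Gli1 and Hhip (5 of 9, against 11.0%), with a more negative change in AoV for each, a direction in which 6.89% of all tested genes were called. At the adjusted p alone Dhh and Gli3 passed as well, 7 of 9 where 28.1% of all tested genes did. The median log2 fold change over the 9 genes was -0.95 from E9 AoV to E10 AoV and 0.51 from E9 AoD to E10 AoD, where the medians over all tested genes were -0.0016 and -0.0019.

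Values are RPM, the reads of a gene scaled to a fixed library total. Called genes are those with a Benjamini-Hochberg adjusted p under 0.05 in the limma fit over all tested genes and a fold change of at least 2, on the log2(RPM + 0.1) scale, and "rose" and "fell" are used for called changes. The spacing of low values put depth between 33.7 and 48.61 M reads per library, at which 3 reads, the limit that a count of 0 allows, correspond to between 0.0617 and 0.0890 RPM. Pairs of libraries of a group correlated across genes with 0.993 to 0.997. In these bulk samples, fewer cells of a type and less RNA per cell cannot be told apart. Defining markers followed the labels in E10 UGR, where Wt1 (370 RPM) and Pax2 (31.4 RPM) were highest, and all 5 groups held the endothelial markers Cdh5 and Pecam1. E9 AoV also held gut endoderm and liver markers, with the 6 liver genes summing to between 479 and 737 RPM against at most 30.1 RPM in any other library, and E10 AoV held 226 RPM of Wt1.

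**Figure D1:**
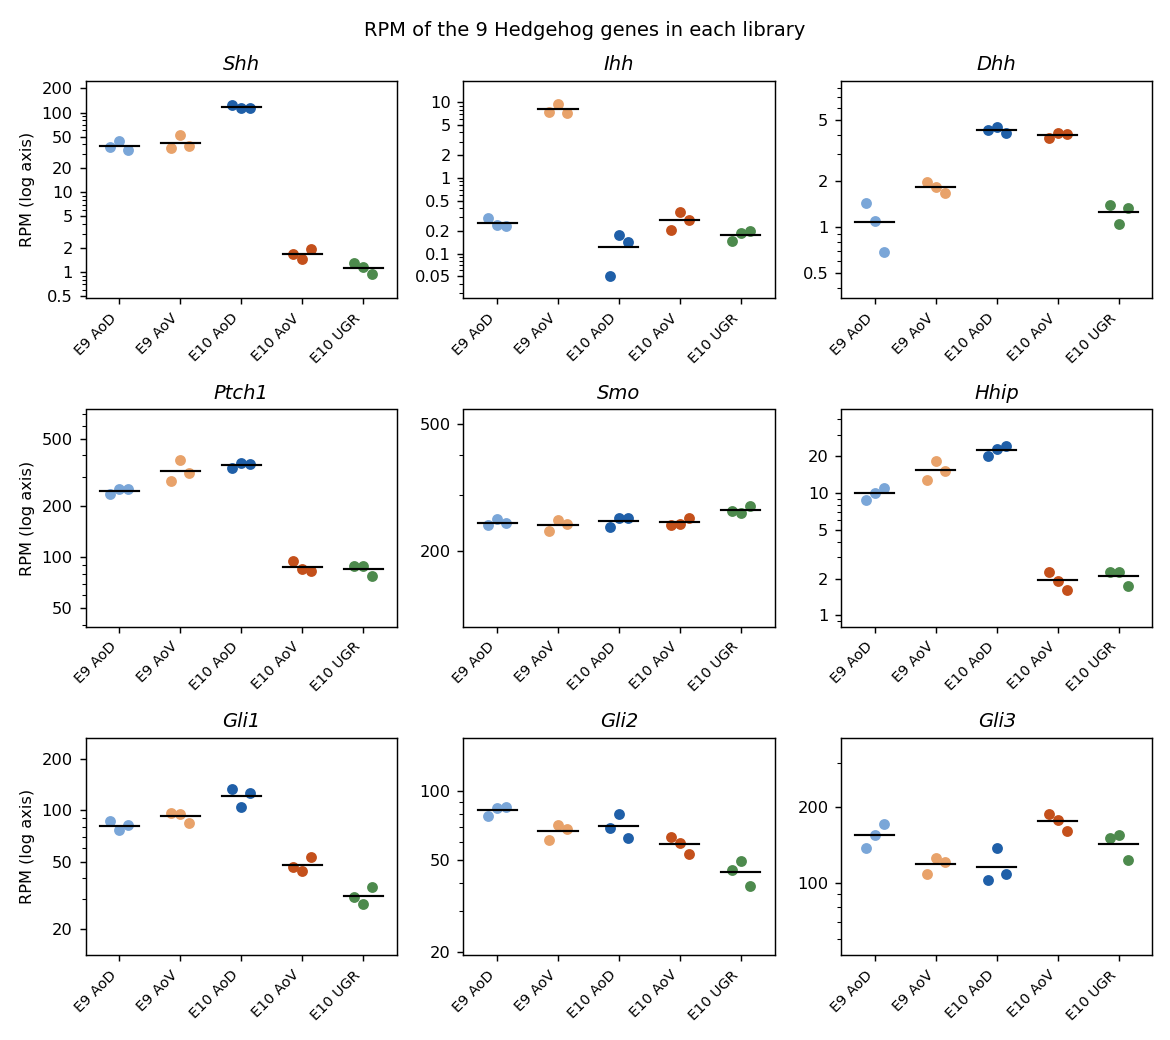
RPM of the 9 Hedgehog genes in each of the 15 libraries, on log axes that differ between panels; each dot is a library and each line the mean of the 3 libraries of a group. Shh, Ptch1 and Hhip are low in all 3 E10 AoV and all 3 E10 UGR libraries, Ihh is high in E9 AoV, and Smo lies between 232 and 278 RPM throughout.

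Shh, which encodes Sonic hedgehog, was the ligand with the widest range. The gene (ENSMUSG00000002633) lies on chromosome 5 from 28783355 to 28793641 on the minus strand of NCBIM37. Its RPM was 36.1, 51.8 and 38.3 in E9 AoV, 37.5, 43.8 and 34.4 in E9 AoD, 1.67, 1.47 and 1.95 in E10 AoV, 124, 113 and 114 in E10 AoD, and 1.29, 1.16 and 0.937 in E10 UGR. The 3 E10 AoD libraries were the highest of all 15, both E9 groups overlapped each other in the middle, and every E10 AoV and E10 UGR library lay below every other. On the ventral side the mean of 42.1 ± 8.50 RPM (SD, n = 3) fell to 1.70 ± 0.241 RPM, with a log2 fold change of -4.54 (limma, SE 0.143, adjusted p = 3.87e-11). On the dorsal side the mean of 38.6 ± 4.79 RPM rose to 117 ± 6.08 RPM, with a value of 1.60 (SE 0.143, adjusted p = 2.73e-07). The change with stage therefore differed between the sides by -6.15 on the log2 scale (SE 0.202, adjusted p = 2.06e-10). At E9.5 the sides differed by 0.11 (95% confidence interval -0.19 to 0.42, adjusted p = 0.545), and at E10.5 by -6.03 (SE 0.143, adjusted p = 1.12e-12), which is 65.5-fold lower in AoV. E10 AoV was above E10 UGR by 0.55 (adjusted p = 0.00924), with ranges that did not overlap, below the fold threshold. Of the exon bases of Shh, 24.2% (652 of 2692) overlap the genes 9530036O11Rik and Gm17493 on the other strand, and the strand setting of the counting is not given in the sources used here, so that reads over these bases cannot be assigned to a strand.

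Shh is made by several midline tissues, and their markers moved with it in part. The notochord list (T, Noto, Foxa2, Col2a1, Acan, Krt19 and Sox9, all 7 in the table) summed to 137 to 149 RPM in E9 AoV, 332 to 345 in E9 AoD, 153 to 186 in E10 AoV, 1025 to 1206 in E10 AoD and 165 to 176 in E10 UGR. Between 5 and 7 of its genes averaged at least 0.5 RPM in a group, and Noto was at 0 in all 3 E10 AoV libraries. T, the brachyury gene of the notochord, averaged 5.64 RPM in E9 AoV, 15.4 in E9 AoD, 1.01 in E10 AoV, 33.9 in E10 AoD and 1.36 in E10 UGR. Other genes of the list had other orders. Noto averaged 0.972 RPM in E9 AoD and 0.0164 in E10 AoD, and Foxa2 went from 11.1 RPM in E9 AoD to 3.95 in E10 AoD. Krt19 averaged 10.7 RPM in E9 AoD and 6.12 in E10 AoD, with its highest mean in E9 AoV. In E10 AoD, T, Noto, Foxa2 and Krt19 made up little of the notochord sum, and most of it came from Col2a1, Acan and Sox9. The sclerotome list, given below, was also highest in E10 AoD. The floor plate list (Foxa2, Foxa1, Ntn1, Nkx2-9, Spon1 and Lmx1b, with 3 to 6 of 6 genes at 0.5 RPM or more) summed to 152 to 158 RPM in E9 AoV, 344 to 365 in E9 AoD, 42.7 to 50.8 in E10 AoV, 322 to 392 in E10 AoD and 68.6 to 106 in E10 UGR, and its defining marker Nkx2-9 averaged 0.773 RPM in E9 AoV, 9.24 in E9 AoD, 0.0577 in E10 AoV, 0.432 in E10 AoD and 0.0527 in E10 UGR. The gut endoderm list, given with Ihh below, was the one of the 3 that was highest in E9 AoV. The part of these tissues in the levels of Shh was not tested.

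Ihh, which encodes Indian hedgehog, was above 0.5 RPM in the 3 E9 AoV libraries and in no other. The gene (ENSMUSG00000006538, chromosome 1, 74991891 to 74998246, minus strand) stood at 7.43, 9.51 and 7.23 RPM in E9 AoV, against 0.295, 0.242 and 0.235 RPM in E9 AoD. It was at 0.0512, 0.176 and 0.142 RPM in E10 AoD, 0.208, 0.358 and 0.279 RPM in E10 AoV and 0.148, 0.185 and 0.197 RPM in E10 UGR. The lowest, E10 AoD replicate 1, was at about 2 reads. Ihh was higher in E9 AoV than in E9 AoD, at a limma value of 4.51 on the log2 scale (SE 0.223, adjusted p = 1.50e-09) and fell from E9 AoV to E10 AoV by 4.43 on that scale (adjusted p = 1.80e-09). These sizes rest on low levels in the second group, and with a pseudocount of 1 RPM they were 2.84 and -2.81, both still called. The interaction of -3.70 (SE 0.315, adjusted p = 9.03e-07) became -2.65 with that pseudocount and was still called. From E9 AoD to E10 AoD the value was -0.72 (adjusted p = 0.0123) and the ventral minus the dorsal level at E10.5 was 0.80 (adjusted p = 0.0110), both under the fold threshold. Without E10 AoD replicate 1 neither passed (adjusted p = 0.0681 and 0.058).

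The summed markers of the gut epithelium were highest in E9 AoV, as Ihh was. The gut endoderm list (Foxa1, Foxa2, Foxa3, Hnf4a, Cdx2, Cdh1, Epcam, Cldn6 and Sox17) summed to between 318 and 394 RPM in E9 AoV, 82.0 to 88.9 in E9 AoD, 37.4 to 43.7 in E10 AoD, 42.2 to 46.3 in E10 AoV and 186 to 191 in E10 UGR, with all 9 genes at 0.5 RPM or more in E9 AoV and 5 to 7 in the other groups. Of the 9 genes 7 had their highest mean in E9 AoV, while Sox17 was highest in E10 AoD (15.1 RPM) and Foxa2 averaged 10.8 RPM in E9 AoV and 11.1 in E9 AoD. Foxa3, an endodermal forkhead factor, averaged 3.96 RPM in E9 AoV and between 0.0163 and 0.10 RPM elsewhere. Cdx2, the hindgut homeobox factor, averaged 26.7 RPM in E9 AoV, 8.04 RPM in E9 AoD and at most 0.828 RPM in the groups of E10.5. In E10 UGR the list was high in sum although both defining markers were near 0. The part of gut tissue in the level of Ihh was not tested.

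Dhh, which encodes Desert hedgehog, was the ligand that rose on both sides. The gene (ENSMUSG00000023000, chromosome 15, 98723462 to 98728971, minus strand) was at 1.96, 1.83 and 1.66 RPM in E9 AoV, 1.43, 1.10 and 0.684 in E9 AoD, 3.79, 4.12 and 4.05 in E10 AoV, 4.28, 4.47 and 4.07 in E10 AoD, and 1.39, 1.05 and 1.32 in E10 UGR. All 6 aorta libraries of E10.5 lay above all 9 other libraries, and E10 AoD and E10 AoV overlapped. The log2 fold change was 1.95 with stage in AoD (SE 0.187, adjusted p = 5.66e-07) and 1.09 in AoV (SE 0.187, adjusted p = 0.000233). The second lost its call with a pseudocount of 0.5 RPM (0.95) or 1 RPM (0.82). The interaction of -0.86 (adjusted p = 0.0248) was under the fold threshold, but passed it without E9 AoD replicate 1, the highest of its group, at -1.08. At E10.5 the sides differed by -0.10 (95% confidence interval -0.50 to 0.30, adjusted p = 0.729), and both exceeded E10 UGR, E10 AoV by 1.60 (adjusted p = 1.13e-05) and E10 AoD by 1.70 (adjusted p = 3.39e-06).

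Dhh is known from endothelium and from Schwann cell precursors. The endothelial list (Cdh5, Pecam1, Kdr, Tek, Tie1, Esam and Emcn, all 7 at 0.5 RPM or more in every group) summed to 596 to 656 RPM in E9 AoV, 301 to 406 in E9 AoD, 649 to 700 in E10 AoV, 623 to 679 in E10 AoD and 477 to 519 in E10 UGR. Cdh5, the endothelial cadherin, averaged 171 RPM in E9 AoV, 106 in E9 AoD, 217 in E10 AoV, 222 in E10 AoD and 135 in E10 UGR. Other genes of the list had other orders, with Kdr at 163 RPM in E9 AoV and 133 in E10 AoV, Tek at 73.1 and 60.9, and Emcn highest in E10 UGR at 44.9. The neural crest and Schwann cell list (Sox10, Erbb3, Foxd3 and Fabp7) summed to 27.8 to 30.2 RPM in E9 AoV, 63.9 to 81.2 in E9 AoD, 19.0 to 26.7 in E10 AoV, 129 to 136 in E10 AoD and 53.7 to 62.8 in E10 UGR, with all 4 genes at 0.5 RPM or more, and so was low in E10 AoV where Dhh was high. The part of either cell type in the level of Dhh was not tested.

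Set per kilobase of exon, so that the genes can be compared with each other, the makeup of the ligands changed as well as their amount. Shh, Ihh and Dhh together came to 19.7 ± 3.66 RPM per kb (SD, n = 3) in E9 AoV, 14.9 ± 1.85 in E9 AoD, 2.43 ± 0.121 in E10 AoV, 45.3 ± 2.23 in E10 AoD and 1.02 ± 0.0936 in E10 UGR. Shh made up 96.3% ± 1.07 of that sum in E9 AoD, 79.3% ± 1.46 in E9 AoV and 95.9% ± 0.328 in E10 AoD. In E10 AoV its share was 25.9% ± 3.10 and in E10 UGR 41.0% ± 5.19. Dhh supplied 69.4% ± 2.22 of the sum in E10 AoV and 51.9% ± 4.94 in E10 UGR, against at most 4.81% in any library of the other groups. Ihh reached 16.7% ± 0.694 in E9 AoV, and its highest share in a library elsewhere was 8.10%. Hence Shh was the main ligand RNA in 3 groups, and per kilobase Dhh was ahead of Shh in every library of E10 AoV and E10 UGR. In E10 UGR replicate 2 that lead was narrow (46.8% against 45.3%). In RPM Shh was the higher of the pair in that library, at 1.16 against 1.05 or about 56 against 51 reads, so its order there is not resolved.

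**Figure D2:**
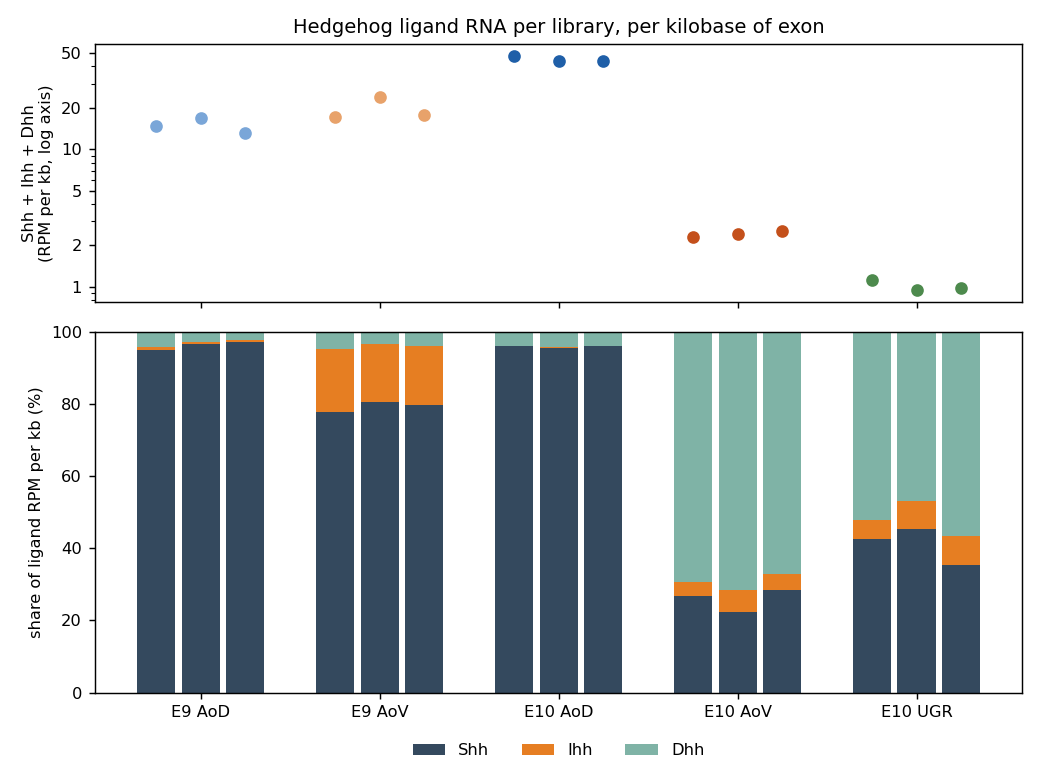
Ligand RNA in each library. The upper panel gives the sum of Shh, Ihh and Dhh in RPM per kilobase of exon on a log axis, and the lower panel the percentage that each ligand contributes, with 3 bars per group for the 3 libraries. Dhh makes up 67.2% to 71.6% of the sum in the E10 AoV libraries.

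Ptch1 encodes Patched 1, the receptor that holds Smoothened inactive and is itself a target of the pathway, and Hhip encodes a surface protein that binds the ligands and is also a target. Ptch1 (ENSMUSG00000021466) lies on chromosome 13 from 63610261 to 63674474 and Hhip (ENSMUSG00000064325) on chromosome 8 from 82490014 to 82581905, both on the minus strand of NCBIM37. Their promoters are shown because these genes moved together across the groups and the pathway's own transcription factors are known to act on both. The stretches run from 250 bases before to 50 bases after the start of transcription, are from RefSeq on GRCm38.p6, a later build than that of the table, and are written 5′ to 3′ on the gene's strand with CG pairs in capitals.
Ptch1, chr13:63565686-63565985, minus strand: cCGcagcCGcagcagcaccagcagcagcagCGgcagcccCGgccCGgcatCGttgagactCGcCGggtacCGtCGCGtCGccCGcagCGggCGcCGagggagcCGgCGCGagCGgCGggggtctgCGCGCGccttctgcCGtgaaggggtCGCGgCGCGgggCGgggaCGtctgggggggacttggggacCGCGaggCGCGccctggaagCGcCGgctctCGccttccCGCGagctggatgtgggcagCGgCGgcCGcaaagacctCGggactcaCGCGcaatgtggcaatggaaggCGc
Hhip, chr8:80057959-80058258, minus strand: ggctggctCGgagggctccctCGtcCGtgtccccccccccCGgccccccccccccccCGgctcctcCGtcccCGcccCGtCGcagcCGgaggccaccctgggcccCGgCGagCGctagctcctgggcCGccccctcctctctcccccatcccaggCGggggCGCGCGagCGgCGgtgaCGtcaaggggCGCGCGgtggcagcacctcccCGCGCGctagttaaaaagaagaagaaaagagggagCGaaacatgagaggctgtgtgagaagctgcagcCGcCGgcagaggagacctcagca
The Ptch1 stretch is 76.3% G and C and holds 47 CG pairs, and the Hhip stretch is 73.7% G and C with 30 CG pairs. Of all promoters, 97.1% had a lower share of G and C than Ptch1 and 94.9% a lower one than Hhip. For CG pairs relative to the number that the C and G content would give, these percentages were 97.7% for Ptch1 and 74.7% for Hhip. Over all 9 genes a promoter was found for 7 (Ihh, Dhh, Ptch1, Smo, Gli2, Gli3 and Hhip), with 61.7% to 76.3% G and C. The Gli binding motif GACCACCCA, searched on both strands, occurs in 0.253% of the 32851 promoters of the table. Its end CCACCCA, which every match of the longer motif also contains, occurs in 9.3%. Neither was found in the 7 promoters, which says only that these letters are not in these windows.

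Ptch1 was measured at 281, 373 and 316 RPM in E9 AoV, 235, 252 and 253 in E9 AoD, 94.8, 85.9 and 83.3 in E10 AoV, 338, 362 and 357 in E10 AoD, and 89.4, 88.3 and 77.7 in E10 UGR. The E10 AoV and E10 UGR libraries overlapped each other and lay far below the 9 others. From E9 AoV to E10 AoV Ptch1 fell by 1.87 on the log2 scale (SE 0.0857, adjusted p = 7.07e-10), which is 3.65-fold. From E9 AoD to E10 AoD the value was 0.51 (adjusted p = 0.000124), with ranges that did not overlap but under the fold threshold. The changes with stage differed by -2.38 between the sides (SE 0.121, adjusted p = 1.52e-08). At E9.5 AoV was above AoD by 0.38 (adjusted p = 0.00195, under the fold threshold), whereas at E10.5 it was below AoD (log2 fold change -2.0, adjusted p = 3.33e-10). E10 AoV and E10 UGR differed by 0.05 (95% confidence interval -0.13 to 0.23, adjusted p = 0.727).

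Hhip had the same order of groups as Ptch1, apart from the overlapping pair at the bottom, and a wider range. It was at 12.7, 18.4 and 15.2 RPM in E9 AoV, 8.85, 9.94 and 11 in E9 AoD, 2.28, 1.92 and 1.61 in E10 AoV, 20, 22.8 and 24.1 in E10 AoD, and 2.25, 2.26 and 1.75 in E10 UGR. E10 AoD, E9 AoV and E9 AoD did not overlap each other, whereas E10 AoV and E10 UGR did. With stage Hhip fell 7.61-fold in AoV (log2 fold change -2.93, SE 0.152, adjusted p = 2.20e-09) and rose 2.24-fold in AoD (1.16, SE 0.152, adjusted p = 1.26e-05). The interaction was -4.09 (SE 0.214, adjusted p = 1.60e-08). E10 AoV was 11.1-fold below E10 AoD (-3.47, adjusted p = 4.03e-10) and differed from E10 UGR by -0.11 (95% confidence interval -0.43 to 0.22, adjusted p = 0.659).

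Smo encodes Smoothened, the membrane protein that carries the signal into the cell. The gene (ENSMUSG00000001761, chromosome 6, 29685694 to 29711365, plus strand) was at 232, 250 and 244 RPM in E9 AoV, 241, 252 and 245 in E9 AoD, 242, 244 and 255 in E10 AoV, 239, 255 and 255 in E10 AoD, and 268, 264 and 278 in E10 UGR. The 12 aorta libraries overlapped, and the 3 E10 UGR libraries were the highest. In the stage comparisons of the aorta and those between its sides the log2 fold changes lay between -0.02 and 0.03, and the 95% confidence interval was -0.06 to 0.12 for the stage change in AoV and -0.07 to 0.11 for that in AoD. Against E10 UGR, E10 AoV and E10 AoD stood at -0.13 and -0.11 on the log2 scale (adjusted p = 0.0312 and 0.0432), far under the fold threshold. Of the 50-base windows of the Smo transcripts 2.33% occur in another gene as well.

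**Figure D3:**
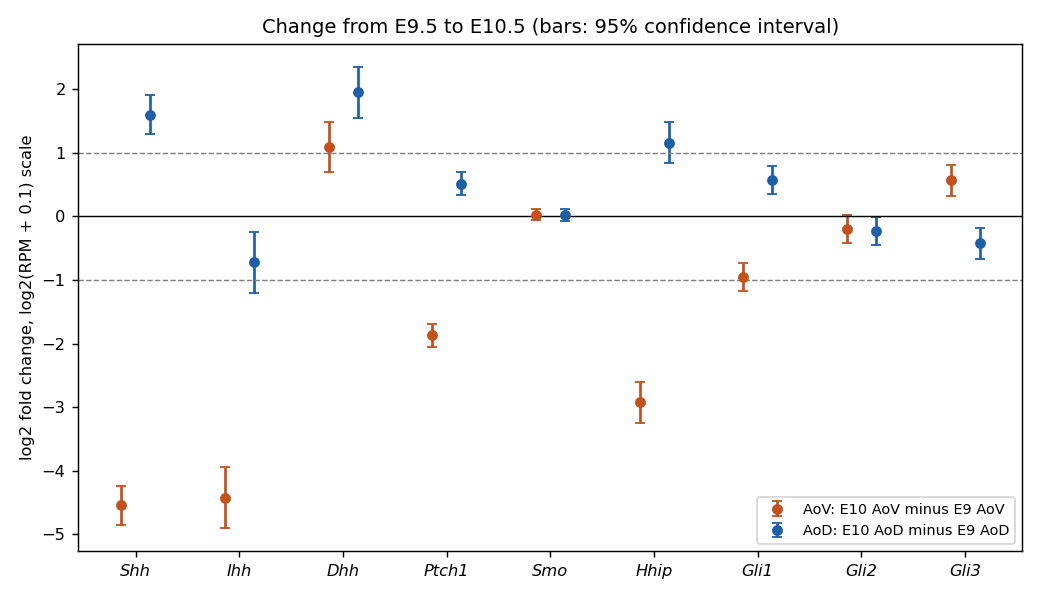
Log2 fold change from E9.5 to E10.5 of each Hedgehog gene in AoV and in AoD, on the log2(RPM + 0.1) scale; points are limma estimates from 3 libraries per group, bars are 95% confidence intervals and dashed lines mark the fold threshold. Shh lies at -4.54 in AoV and 1.60 in AoD, and Smo at 0.03 and 0.02.

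Gli1, Gli2 and Gli3 encode the zinc finger factors at the end of the pathway, of which Gli1 acts as an activator and is switched on by the pathway, while Gli3 is the main source of the repressor form. Gli1 (ENSMUSG00000025407, chromosome 10, 126766945 to 126778645, minus strand) was at 97.1, 95.8 and 84.7 RPM in E9 AoV, 86.1, 76.4 and 82 in E9 AoD, 46.4, 43.9 and 53.2 in E10 AoV, 133, 105 and 127 in E10 AoD, and 31.1, 28.2 and 35.5 in E10 UGR. The groups of E9.5 overlapped, E10 AoD lay above and E10 AoV and E10 UGR below them, without overlap. From E9 AoV to E10 AoV the log2 fold change was -0.95 (SE 0.101, adjusted p = 2.41e-06), just under the fold threshold, which it passed without E10 AoV replicate 3 (-1.03) or without E9 AoV replicate 3 (-1.01). In AoD the value was 0.57 (adjusted p = 0.00021, under the threshold), and the interaction of -1.52 was called (SE 0.143, adjusted p = 2.19e-06). At E10.5 Gli1 was lower in AoV than in AoD by a log2 fold change of -1.34 (adjusted p = 7.78e-08), and E10 AoV was above E10 UGR by 0.60 (adjusted p = 0.000355). Of the exon bases of Gli1, 1.45% overlap Arhgap9 on the other strand.

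Gli2 varied less than Gli1. The gene (ENSMUSG00000048402, chromosome 1, 120730709 to 120950196, minus strand) was at 61.2, 71.3 and 68.9 RPM in E9 AoV, 78.3, 84.5 and 85.5 in E9 AoD, 63.6, 59.5 and 53.1 in E10 AoV, 69.4, 80 and 62.8 in E10 AoD, and 45.6, 49.9 and 38.6 in E10 UGR. The groups formed a series of overlapping ranges, apart from E10 UGR, which was below all others. The interaction was 0.04 (95% confidence interval -0.27 to 0.35, adjusted p = 0.878), and neither stage change passed the test (AoV -0.19, adjusted p = 0.137, and AoD -0.23, adjusted p = 0.0635). E10 AoD was above E10 UGR by 0.66 (adjusted p = 9.65e-05), under the fold threshold.

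Gli3 had changes with stage, and a difference between the sides at E10.5, of the opposite sign to those of Gli1, and all were under the fold threshold. The gene (ENSMUSG00000021318, chromosome 13, 15555068 to 15821859, plus strand) was at 108, 126 and 121 RPM in E9 AoV, 138, 155 and 171 in E9 AoD, 188, 177 and 161 in E10 AoV, 103, 137 and 108 in E10 AoD, and 151, 155 and 123 in E10 UGR. E10 AoV was above E9 AoV and E10 AoD without overlap. The log2 fold change was 0.57 in AoV (SE 0.114, adjusted p = 0.000918) and -0.42 in AoD (adjusted p = 0.0056), and E10 AoV was above E10 AoD by 0.60 (adjusted p = 0.000677). The interaction of 0.99 (SE 0.162, adjusted p = 0.000317) missed the fold threshold by little, and passed it, at 1.01 to 1.11, when E9 AoD replicate 1, E9 AoV replicate 2 or 3, E10 AoD replicate 2 or E10 AoV replicate 3 was left out.

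The ratio of Gli1 to Gli3 within a library does not depend on depth, and its differences between groups do not depend on the lengths of the genes. As a ratio of RPM it was 1.08 ± 0.276 (SD, n = 3) in E10 AoD, 0.786 ± 0.102 in E9 AoV, 0.532 ± 0.0798 in E9 AoD, 0.275 ± 0.0479 in E10 AoV and, lowest, 0.226 ± 0.056 in E10 UGR. As a log2 value it was lower in E10 AoV than in E9 AoV by a difference of -1.52, higher in E10 AoD than in E9 AoD by 0.99, and lower in E10 AoV than in E10 AoD by a difference of -1.95. In each of these the 3 libraries of one group lay above the 3 of the other, with an exact two-sided permutation p = 0.1, the smallest that 3 against 3 allow. E10 AoV and E10 UGR differed by 0.30 (exact permutation p = 0.3).

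**Figure D4:**
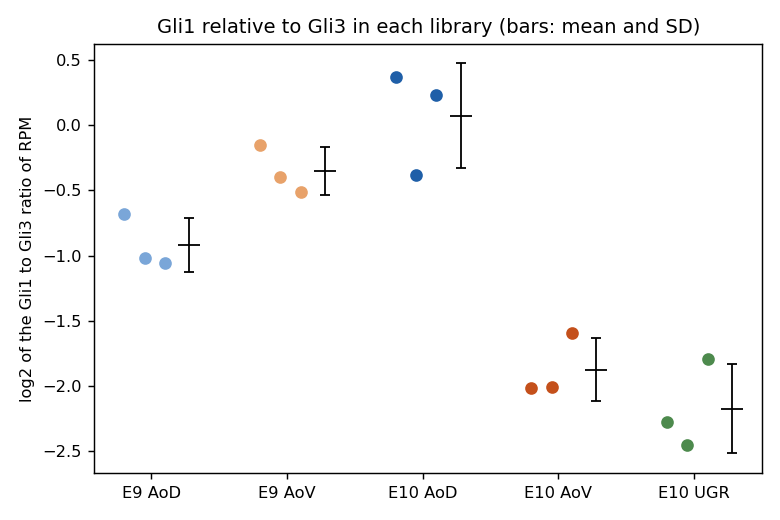
Log2 of the ratio of Gli1 RPM to Gli3 RPM in each library by group, with the mean and SD of the 3 libraries beside the dots. The E10 AoV and E10 UGR libraries lie between -2.45 and -1.60 and all others at -1.06 or above.

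The order of the groups was alike in Shh, Ptch1, Gli1 and Hhip in its upper part, with E10 AoD first, then E9 AoV and then E9 AoD. Neighbours in these orders did not differ at an adjusted p of 0.05 between E10 AoD and E9 AoV in Ptch1 (adjusted p = 0.228), between E9 AoV and E9 AoD in Gli1 (0.157) and Shh (0.545), and between E10 AoV and E10 UGR in Ptch1 (0.727) and Hhip (0.659). Per kilobase, Smo had the highest level of the 9 genes in every group, from 64.0 ± 2.43 RPM per kb in E9 AoV to 71.4 ± 1.91 in E10 UGR. Ptch1 came second in E9 AoD (37.5 ± 1.54 RPM per kb), E9 AoV (49.2 ± 7.06) and E10 AoD (53.6 ± 1.93), and Gli3 second in E10 AoV (18.3 ± 1.42) and E10 UGR (14.9 ± 1.82). Shh was in rank 3 in E10 AoD, at 43.5 ± 2.26 RPM per kb, and in rank 7 in E10 AoV, at 0.630 ± 0.0896. Ihh was last in every group but E9 AoV, where Dhh was.

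Genes that release, receive and relay the signal were taken from a list of 32 names, of which 31 were measured and Disp1 was not analysed here. The 12 genes of the cilium and of the relay from Smoothened to Gli (such as Sufu, which holds Gli proteins in the cytoplasm, Kif7 and Ift88) lay between -0.29 and 0.28 from E9 AoV to E10 AoV and between -0.47 and 0.36 from E9 AoD to E10 AoD. At the adjusted p alone 2 and 6 of the 12 passed, where 46.0% and 57.8% of all tested genes did. The 9 kinases and turnover factors of Gli proteins lay between -0.16 and 0.31 in AoV and between -0.45 and 0.35 in AoD. Over all 31 genes 3 were called in AoV and 4 in AoD (against 11.0% and 12.6%), with medians of 0.07 and 0.0021.

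Called genes of that list were those of ligand release and ligand capture. Scube2, whose product helps release the lipid-bearing ligand, was at 15.3, 11.7 and 33.4 RPM in E9 AoD and between 0.178 and 1.46 RPM in all 12 other libraries. It fell in AoD by 4.43 on the log2 scale (SE 0.318, adjusted p = 3.23e-08), and was lower in E9 AoV than in E9 AoD by a log2 fold change of -3.88. In AoV with stage Scube2 was called lower as well (-1.01, limma adjusted p = 0.0171). That call was lost with a pseudocount of 0.5 or 1 RPM, and without E10 AoV replicate 1 or 3 or E9 AoV replicate 2. The neural tube list, given below, went from 219 to 433 RPM summed in E9 AoD to 46.5 to 83.2 in E10 AoD and was at 17.4 to 21.4 in E9 AoV, and the part of neural tissue in the level of Scube2 was not tested. Disp2, a relative of the Dispatched transporter, averaged 9.18 RPM in E10 AoD and between 1.37 and 3.12 RPM in the other groups, and rose in AoD (1.49, adjusted p = 0.00011). Gas1, a surface protein that helps cells to respond to ligand, changed with stage in AoV in the direction opposite to Ptch1. It was at 66.3, 50.2 and 54.8 RPM in E9 AoV, 104, 100 and 106 in E9 AoD, 116, 116 and 121 in E10 AoV, 45.7, 70 and 55.3 in E10 AoD and 158, 135 and 145 in E10 UGR. Gas1 rose in AoV (1.05, SE 0.123, adjusted p = 6.28e-06), was higher in E10 AoV than in E10 AoD (1.07, adjusted p = 6.21e-06) and had an interaction of 1.93 (adjusted p = 1.51e-06). The change in AoV was under the fold threshold without E9 AoV replicate 2 (0.96), and the difference at E10.5 without E10 AoD replicate 1 (0.92).

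The other coreceptors behaved in part like Gas1. Cdon fell in AoD (-1.01, adjusted p = 4.88e-06) and stood at 0.12 in AoV, with an interaction of 1.13 (adjusted p = 0.000154). Its change in AoD was under the fold threshold without E9 AoD replicate 3 (-0.89) or E10 AoD replicate 1 (-0.91), with TMM scaling and with a pseudocount of 0.5 or 1 RPM, and its interaction without E9 AoV replicate 1 (0.999). Boc was lower in E9 AoV than in E9 AoD (-1.17, adjusted p = 1.60e-08), with values of 0.76 in AoV and -0.50 in AoD under the fold threshold and an interaction of 1.26 (adjusted p = 8.64e-07). Lrp2, a large endocytic receptor of several ligands that is abundant in kidney epithelium, fell on both sides (-1.31 in AoV and -3.07 in AoD) and was higher in E10 AoV than in E10 AoD (2.43, adjusted p = 2.01e-06). Of the 5 surface coreceptors 4 (Boc, Cdon, Gas1 and Lrp2) had a called positive interaction, against 4.12% of all tested genes, and the fifth, Gpc3, stood at -0.14. Without E9 AoV replicate 2, 1 gene of the 31 was called between E9 AoV and E10 AoV in place of 3.

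Genes known as Hedgehog targets in at least 1 tissue were listed as 18 names besides the 9 genes above. From E9 AoV to E10 AoV 7 were called, or 4 with a pseudocount of 1 RPM, each lower (against 4.99% called lower among all tested genes), with a median log2 fold change of -0.67 where that of all tested genes was -0.0016. From E9 AoD to E10 AoD 11 were called, 6 higher and 5 lower (against 8.6% and 4.0%), with a median of -0.0086. At E10.5, 11 were called between the sides, 10 of them lower in AoV (against 4.29%) and 1 higher (against 5.81%), with a median of -1.35. At E9.5, 10 were called, 3 higher and 7 lower in AoV (against 8.32% and 3.47%). Against E10 UGR, 13 were called in E10 AoD, 12 of them higher (against 4.76%) and 1 lower (against 6.56%), and 4 in E10 AoV, 3 of them higher (against 3.84%) and 1 lower (against 3.73%). The list is one of general knowledge, its members also mark notochord, floor plate, sclerotome and gut mesenchyme, and it was chosen with results of these data known.

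Forkhead genes of the mesenchyme around gut and aorta showed opposite changes on the sides. Foxf1a was at 61.7, 76.4 and 64 RPM in E9 AoV and 10.6, 11.6 and 11.5 in E10 AoV, and at 5.3, 5.4 and 2.82 in E9 AoD and 19.4, 29.1 and 16.6 in E10 AoD. Foxf1a fell in AoV (-2.57, SE 0.246, adjusted p = 8.73e-07) and rose in AoD (2.26, adjusted p = 2.04e-06). Foxf2 did the same, from 51.2 to 4.05 RPM in AoV (-3.62, adjusted p = 1.27e-09) and from 7.68 to 88.7 RPM in AoD (3.52, adjusted p = 1.28e-09), with the largest interaction of the list (-7.14, SE 0.250, adjusted p = 2.76e-10). Foxa2, the forkhead factor of notochord, floor plate and endoderm, fell in AoV from 10.8 to 0.165 RPM (-5.36, adjusted p = 3.43e-10) and also in AoD, from 11.1 to 3.95 RPM (-1.56, adjusted p = 3.44e-05). Shh itself had risen in that dorsal comparison. The splanchnic mesenchyme list (Foxf1a and Foxf2 themselves, Barx1, Hand1, Hand2 and Tcf21, with 4 to 6 of 6 genes at 0.5 RPM or more) summed to 403 to 442 RPM in E9 AoV, 28.5 to 53.6 in E9 AoD, 201 to 210 in E10 AoV, 141 to 197 in E10 AoD and 50.6 to 51.7 in E10 UGR, and the part of this tissue in the values was not tested.

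The sclerotome factors Pax1 and Pax9, which act in vertebral precursors beside the notochord, rose in AoD. Pax1 was at 67.3, 65.4 and 69.9 RPM in E9 AoD and 300, 360 and 236 in E10 AoD (2.12, SE 0.232, adjusted p = 2.17e-06), and between 3.07 and 6.04 RPM in all 6 AoV libraries. At E10.5 it was lower in AoV by a log2 fold change of -5.92 (adjusted p = 1.83e-10) and Pax9 by one of -5.20 (adjusted p = 3.48e-12). The sclerotome list (Pax1 and Pax9 themselves, Nkx3-2, Uncx and Meox1) summed to 59.7 to 79.0 RPM in E9 AoV, 398 to 435 in E9 AoD, 35.8 to 42.9 in E10 AoV, 572 to 728 in E10 AoD and 110 to 144 in E10 UGR. The neural tube factors Olig2, Nkx2-9 and Nkx6-1 fell in AoD, where Olig2 went from 44.0 to 1.81 RPM (-4.66, adjusted p = 3.74e-08), and the neural tube list of 7 genes, which holds Olig2 and Nkx6-1, went from 219 to 433 RPM summed in E9 AoD to 46.5 to 83.2 in E10 AoD. The part of somite and neural tissue in these values was not tested.

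Sfrp1, which encodes a secreted Wnt inhibitor, was the 1 target called higher in AoV at E10.5, at 516 RPM against 135 RPM in AoD (1.94, adjusted p = 1.38e-10). Mycn and the cell cycle genes Ccnd1, Ccnd2 and Cdk6 lay between -0.83 and -0.35 in AoV, under the fold threshold. Foxl1 was matched by its identifier, since the table names that row AC127554.1.

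**Figure D5:**
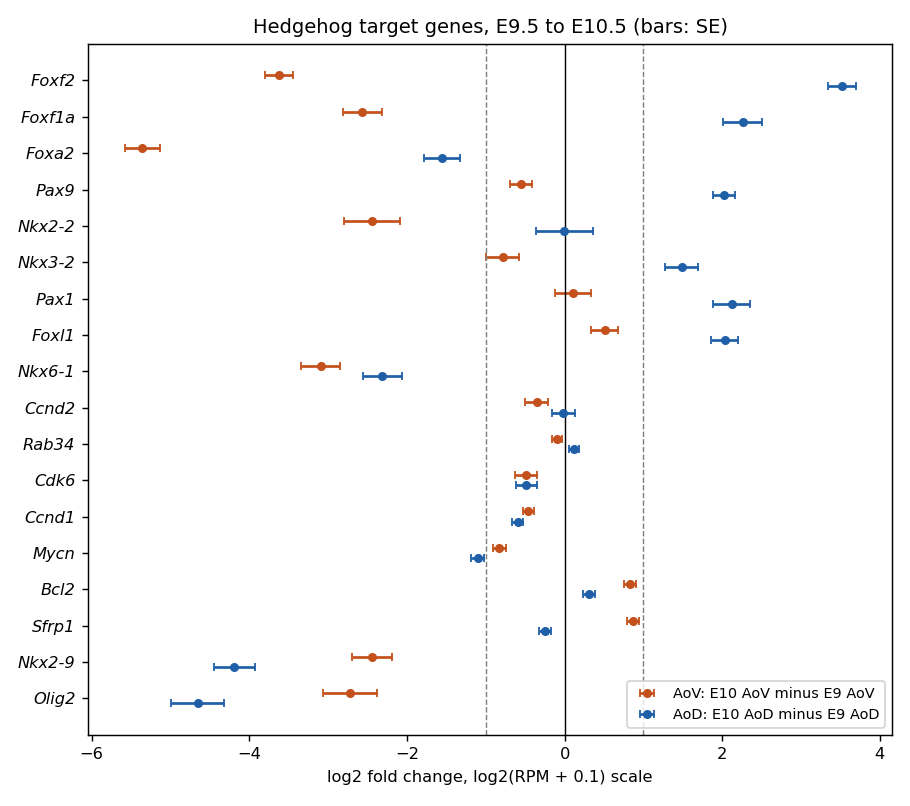
Log2 fold change from E9.5 to E10.5 of the 18 Hedgehog target genes in AoV and in AoD on the log2(RPM + 0.1) scale, ordered by the difference between both; points are limma estimates from 3 libraries per group, bars their SE and dashed lines the fold threshold. Foxf2 and Foxf1a lie on opposite sides of 0 in AoV and AoD, while Olig2, Nkx2-9 and Nkx6-1 lie below -1 in both.

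Promoters were found for 13 of the 18 target genes, and 4 of these held the shorter motif CCACCCA, which 10.6% of all genes with a promoter hold. They are shown as stretches of 30 bases with the match in capitals (TGGGTGG where it lies on the other strand), on GRCm38.p6 and on the strand of the gene.
Nkx2-9, chr12:56613473-56613502, minus strand: gtcactgttcgCCACCCAagatgttattca
Olig2, chr16:91225522-91225551, plus strand: cgctgctgcctCCACCCAgctataaaaacc
Pax1, chr2:147364776-147364805, plus strand: tggtgtgtatgTGGGTGGggtggggtgtgt
Mycn, chr12:12941792-12941821, minus strand: tctggacgcgcTGGGTGGatgcggggggct
From E9 AoD to E10 AoD, Nkx2-9, Olig2 and Mycn fell (-4.19, -4.66 and -1.10) and Pax1 rose (2.12), so that genes with the match went both ways. The longer motif was in no promoter of the 13.

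Profiles were compared as log2(RPM + 0.1) centred on each gene's mean over the 15 libraries, with the root mean square (RMS) difference as the distance. Among the Hedgehog genes Ptch1 and Gli1 were close, at 0.356, where Ptch1 itself varied by 0.908 about its mean, and Ptch1 and Hhip were at 0.557. The nearest of all tested genes were Has2 (0.294), Pcolce2 (0.306) and Shox2 (0.349) for Ptch1, with Gli1 in rank 4. Has2 (0.228), which encodes a hyaluronan synthase, and Cacna1c (0.317) were among the nearest for Gli1, and the nearest for Hhip were Pkd1l1 (0.452), Shox2 (0.474) and AC121843.1 (0.494). For Shh, whose own variation of 2.66 is large, the nearest were Vtn (0.949), Mnx1 (1.04) and Nkx2-2 (1.07), with T in rank 4. The nearest for Ihh were Foxa3 (0.272), A1cf (0.348) and Gucy2c (0.352). Ihh passed the filter only through E9 AoV, so its profile is a high level there over low values elsewhere. Its distances say little beyond that shared shape. The nearest for Dhh were Edn1 (0.206), which encodes the endothelial peptide endothelin-1, Alox12 (0.207) and Nfix (0.219). For Gli3 they were Reep1 (0.114), Plcb4 (0.142) and Rasal2 (0.143), and for Gli2 AC132221.2 (0.136), Armcx4 (0.137) and Tubb2b (0.141). Smo varied by 0.0664 about its mean, so that a small distance from it says little.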

How the data were processed

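RNA of 15 libraries in 5 groups of 3 was sequenced from one end. The authors placed the reads with TopHat and Bowtie 0.12.3 on the mouse genome (NCBIM37), counted them in Ensembl genes, shared out reads with several hits in proportion to unique reads, and deposited the values as RPM. The strand setting of counting is not given in the sources used here. Further deposited columns hold log2 fold changes and adjusted p-values from DESeq comparisons by the authors and were not used.

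Tests were made on log2(RPM + 0.1) by limma 3.58.1 (R 4.3.3), over all 15 libraries, using 1 mean per group and empirical Bayes with an intensity trend. Genes needed at least 0.5 RPM in at least 1 library, which left 18553 of 28876. The threshold was a Benjamini-Hochberg adjusted p under 0.05 and a fold of at least 2. The script was tested on simulated data. The Gli1 to Gli3 ratio was tested by exact permutation. Alternatives were other pseudocounts, filters, scalings and fits, and leaving out each library.

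The members and lists were chosen with earlier results of these data known, and a few listed genes are not reported here and were taken out of the lists, sums and counts. Named were all 9 members, up to 4 called genes with the largest changes per list and comparison, genes beside a member's result, the 3 nearest profiles of each member, and defining tissue markers. Sfrp1, Foxl1, Gpc3, Mycn and the cell cycle genes were named in addition after their values were seen.

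Depth was inferred from steps between low values. Under 0.5 RPM, 59.6% to 62.0% of values were whole reads within 0.05 of a read, so counts were not recovered. Floors cover counting error only, and the 95% confidence intervals of the limma fit cover only the spread between libraries within groups. Per the study's methods the 3 libraries of a group come from separate experiments, each a pool of embryos, and p-values measure the spread between such pools. Replicate numbers were taken from the labels. Deviations of same-numbered libraries from their group means correlated with 0.19 to 0.452 between E9 AoV and E9 AoD, over 0.1 in each of 3 pairs. The numbers thus paired these groups, whereas every other pair of groups had at least 1 value under 0.1. Between the E10 groups the values were weaker but all positive. They were 0.0889 to 0.168 for E10 AoV and E10 UGR, 0.0441 to 0.339 for E10 AoD and E10 UGR, and 0.0416 to 0.205 for E10 AoD and E10 AoV. A weaker pairing at E10.5 was therefore neither shown nor excluded. Of the gene identifiers, 95.3% were in the annotation used for positions and lengths, which is on the same build.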

Additional observations from a re-analysis of the deposited data

Results flagged for a closer look

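Changes with stage differed between the ventral and the dorsal side for 7 of the 9 Hedgehog genes by the interaction test in limma at an adjusted p under 0.05. The value is the log2 fold change in AoV minus that in AoD. It was -6.15 for Shh, -4.09 for Hhip, -3.70 for Ihh (-2.65 with a pseudocount of 1 RPM), -2.38 for Ptch1 and -1.52 for Gli1. It was -0.86 for Dhh, which rose on both sides, and 0.99 for Gli3, both under the fold threshold. Over all tested genes 28.1% passed that adjusted p.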

How the results depend on the processing

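With the adjusted p alone and no fold threshold, the counts of the 9 Hedgehog genes became 7 in AoD with stage, 6 between the sides at E9.5, 5 for E10 AoV against E10 UGR and 8 for E10 AoD against E10 UGR. Those of the 31 pathway genes became 12 in AoV and 21 in AoD with stage, 9 between the sides at E10.5 and 15 at E9.5, 11 and 10 for E10 AoV and E10 AoD against E10 UGR, and 12 for the interaction. Those of the 18 targets became 15 in AoV with stage and 10 for E10 AoV against E10 UGR. Over all tested genes 46.0% passed that adjusted p in AoV and 57.8% in AoD with stage, and 28.1% for the interaction. For the comparisons between the sides and with E10 UGR that share is not given here, so these counts cannot be read as high or low. With a pseudocount of 1 RPM, 4 targets were called in AoV with stage. Leaving out 1 library gave 1 to 3 pathway genes in AoV with stage, with 1 without E9 AoV replicate 2. Of the values of single Hedgehog genes, 1480 kept direction and call, 18 reversed, 8 gained and 2 lost a call.

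The reversed values were all near 0. Under quantile normalization Smo stood at 0.0187 between the sides at E9.5 and -0.0430 for the interaction, and under TMM scaling at -0.0014 for the interaction. Leaving out 1 library in turn gave ranges that crossed 0. For Smo these were -0.00028 to 0.0536 in AoV with stage, -0.0464 to 0.00037 between the sides at E10.5, -0.0479 to 0.0060 at E9.5 and -0.0223 to 0.0327 for the interaction. They were -0.0453 (without E9 AoV replicate 2) to 0.215 for Shh between the sides at E9.5, -0.016 to 0.0868 for Ptch1 and -0.225 to 0.013 for Hhip in E10 AoV against E10 UGR, and -0.0432 to 0.131 for Gli2 in the interaction. The cause was not tested. Quantile normalization moved the split of higher and lower calls from 1595 and 742 to 1311 and 863 in AoD with stage, and from 1544 and 643 to 1200 and 820 between the sides at E9.5.

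By the correlations of same-numbered libraries, the replicate numbers paired E9 AoV with E9 AoD. Between the E10 groups these correlations were all positive (0.0416 to 0.339), and a weaker pairing there was neither shown nor excluded. Over all groups the correlations ran from -0.138 to 0.452 (median 0.0638), with 11 of 30 pairs over 0.1, and 11 of 15 libraries were closest to one with their own number. With the replicate block, 5 Hedgehog genes were called in AoV and 3 in AoD with stage and 1 between the sides at E9.5, and the block changed no call of the 9 Hedgehog genes, the 31 pathway genes or the 18 targets. At the adjusted p alone it let Gli2 pass in AoD with stage (adjusted p = 0.0292) and between the sides at E10.5 (0.0239), and Gli3 for E10 AoV against E10 UGR (0.0419). Pairing by the numbers was not shown for these groups, and among those of E10.5 it was not excluded.

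Ihh outside E9 AoV rests on about 2 to 14 reads a library, and a change there was limited by depth.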
